A study of Mus musculus with 12 samples.

Results

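The genes described here mark the 2-cell-like state of mouse embryonic stem (ES) cells. The list held 10 genes, *Tmem92*, *Tdpoz3*, *Tdpoz4*, *Zfp352*, *Usp17lc*, *Tcstv1*, *Tcstv3*, *Zscan4c*, *Zscan4d* and *Zscan4f*, found by gene symbol in the annotation of the array. They were chosen because those above background were higher after *Kdm6a* RNAi in PGK12.1 cells, so their PGK12.1 changes are given as a description, without a test. Of the 10 genes, 9 had a probe set. *Tmem92*, *Tdpoz3*, *Zfp352*, *Usp17lc* and *Tcstv3* had a probe set of their own, and *Usp17lc* also lay on a probe set shared with *Usp17la*, *Usp17ld* and *Usp17le*. *Tdpoz4* was measured only on a probe set shared with *Tdpoz8*. *Zscan4c*, *Zscan4d* and *Zscan4f* were measured only on 3 probe sets shared with *Zscan4a* and *Zscan4b*, so these 5 genes are treated as the *Zscan4* group. *Tcstv1* had no listed probe set. The 9 genes were thus carried by 10 probe sets, which gave 8 measured features (a gene, or a gene group of a shared probe set) among 20736 on the array.

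The series used Affymetrix Mouse Gene 1.0 ST arrays to compare total RNA of ES cells given *Kdm6a* siRNAs with that of cells given negative control siRNAs in the same numbered experiment. PGK12.1 is a female line from a 129 mother and a (129 X PGK)F1 father, and WD44 is a male line from BL6 blastocysts, both at passage 14 to 18 and freed of MEF feeders on gelatin before RNAi. An experiment is a pair of arrays, control and *Kdm6a* RNAi, and the 12 arrays make up 4 experiments for PGK12.1 and 2 for WD44. PGK12.1 experiments 1 and 2 were double RNAi, 100 pmol for 48 h followed by 400 pmol for 24 h, and all other experiments were single RNAi, 100 pmol for 48 h. Each sex is represented by a single line, so sex, strain and line cannot be told apart.

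In the mouse, the main activation of the embryonic genome takes place at the 2-cell stage, and a set of genes is switched on there and silenced soon after. A small and changing fraction of cells in ES cultures passes through a state that uses many of these genes again, together with endogenous retroviral elements of the MERVL family. The factor DUX, a double homeobox protein, activates this program in the embryo and in ES cells. *Kdm6a* encodes a demethylase of histone H3 lysine 27, a mark of Polycomb silencing.

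*Kdm6a* RNA was lower in every experiment, by log2 changes of -1.27, -1.50, -1.42 and -0.96 in PGK12.1 and -0.94 and -0.92 in WD44. Array medians lay between 6.15 and 6.48 (log2) in PGK12.1 experiments 1 to 3, at 8.20 and 8.21 in experiment 4 and between 8.03 and 8.08 in WD44. Changes were therefore taken within an experiment. Levels are given as the linear value over the mean of the array, and as the percentile of the feature among all 20736 features of that array. A level of 0.1 of the array mean, averaged over the 12 arrays, was the minimum for a test, which 15804 features passed. All 8 features of the 2-cell-stage genes passed it, 6 of them through PGK12.1, because *Tmem92*, *Tdpoz3*, *Tdpoz4* or *Tdpoz8*, *Zfp352*, *Usp17lc* and *Tcstv3* were below 0.1 in both WD44 controls. *Tcstv3* was also below it in 1 PGK12.1 control, at 0.0835. Detection calls were not used here, and a value this low on an array may be mostly background.

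The RefSeq promoter table of GRCm38.p6 held 6 of the 10 genes, without *Tmem92*, *Tdpoz3*, *Tcstv1* and *Tcstv3*. The 250 bases before the start are shown for 4 of them to let the shared sequence of the *Zscan4* copies be seen beside members of other families. Letters read 5′ to 3′ on the strand of the gene, and capitals mark TATAAA. The positions are chr7:11005495-11005744 on the plus strand for *Zscan4c*, chr7:11166149-11166398 on the minus strand for *Zscan4d*, chr7:103416446-103416695 on the plus strand for *Usp17lc* and chr4:90218570-90218819 on the plus strand for *Zfp352*.
Zscan4c: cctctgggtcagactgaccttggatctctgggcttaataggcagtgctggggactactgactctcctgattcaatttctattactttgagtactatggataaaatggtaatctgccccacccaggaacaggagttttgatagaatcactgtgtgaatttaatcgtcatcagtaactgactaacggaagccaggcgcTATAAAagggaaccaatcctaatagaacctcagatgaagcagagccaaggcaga
Zscan4d: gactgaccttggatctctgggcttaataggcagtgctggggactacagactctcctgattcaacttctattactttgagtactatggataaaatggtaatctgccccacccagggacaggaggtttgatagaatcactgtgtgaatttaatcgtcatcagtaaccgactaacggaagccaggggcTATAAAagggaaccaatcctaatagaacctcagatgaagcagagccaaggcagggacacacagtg
Usp17lc: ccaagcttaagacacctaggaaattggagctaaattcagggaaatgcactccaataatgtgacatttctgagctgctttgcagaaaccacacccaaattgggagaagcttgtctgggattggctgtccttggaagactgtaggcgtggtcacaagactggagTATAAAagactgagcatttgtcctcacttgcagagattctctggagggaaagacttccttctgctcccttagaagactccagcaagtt
Zfp352: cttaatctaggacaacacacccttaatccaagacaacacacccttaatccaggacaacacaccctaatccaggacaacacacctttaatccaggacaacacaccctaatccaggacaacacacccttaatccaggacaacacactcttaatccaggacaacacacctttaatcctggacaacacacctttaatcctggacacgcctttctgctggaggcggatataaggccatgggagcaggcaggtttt

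The *Zscan4c* and *Zscan4d* promoters matched at 232 of 238 aligned bases (97.5%) in a local alignment. *Zscan4f*, at chr7:11397665-11397914 on the plus strand, matched *Zscan4c* at 226 of 227 aligned bases (99.6%) and *Zscan4d* at 209 of 216 (96.8%). The annotated starts are staggered between these copies, since TATAAA began 54 bases before the start of *Zscan4c*, 65 before that of *Zscan4d* and 31 before that of *Zscan4f*. In *Usp17lc* it began 88 bases before the start. TATAAA, searched on both strands, was thus in 4 of the 6 promoters and in 12.4% of the 32851 promoters in the table. The *Zscan4* copies account for 3 of those 4 and are not independent. An exact match to the DUX motif (TGATT, any base, then AATCA), searched on both strands, was in none of the 6 and in 0.0304% of all promoters. At that share, its absence from 6 promoters says little, and partial matches were not counted. CpG dinucleotides numbered 3 in each *Zscan4* promoter, 2 in *Zfp352*, 1 in *Usp17lc* and 0 in *Tdpoz4* (chr3:93796148-93796397, plus strand), against a median of 6. The GC content ran from 32.8% in *Tdpoz4* to 47.2% in *Zfp352*, against a median of 52.4%.

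Each of the 8 features had a higher mean after *Kdm6a* RNAi in PGK12.1, with mean log2 changes between 0.20 and 0.56, and 7 of the 8 were higher in all 4 experiments. Of all tested features, 16.2% were higher in all 4, but the members were chosen on this contrast and nothing is read from the difference. Because RNA came from whole cultures, more cells in the 2-cell-like state and more RNA per such cell cannot be told apart.

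The *Zscan4* genes encode proteins with a SCAN domain and zinc fingers that take part in telomere maintenance, and they are the usual reporters of the state. In the PGK12.1 controls the *Zscan4* group lay at 7.44, 8.49, 7.98 and 4.66 times the array mean in experiments 1 to 4. After *Kdm6a* RNAi it lay at 10.1, 10.4, 10.2 and 6.77 times the array mean. The *Kdm6a* RNAi arrays of experiments 1 to 3 lay above all 4 controls. The control of experiment 4 was the lowest of the control arrays, and its *Kdm6a* RNAi array lay below the other 3 controls. Across experiments the levels of the conditions thus overlapped. The log2 changes were 0.46, 0.28, 0.35 and 0.54, with a mean of 0.41 ± 0.115 (SD, n = 4), or 1.33-fold. The 3 probe sets, which are annotated to several of the same genes and are not independent, gave log2 changes between 0.23 and 0.58 in these experiments.

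*Tmem92* encodes a predicted membrane protein. Its control levels in PGK12.1 were 0.588, 0.586, 0.464 and 0.466 of the array mean, and its levels after *Kdm6a* RNAi were 0.653, 0.813, 0.538 and 0.688. Its log2 changes were 0.17, 0.46, 0.21 and 0.56, with a mean of 0.35 ± 0.190 (SD, n = 4). *Zfp352* encodes a zinc finger protein. It went from 0.171, 0.175, 0.220 and 0.539 of the array mean in the controls to 0.219, 0.215, 0.238 and 0.895. Experiment 4 stood above the others in both conditions, and the log2 changes of 0.37, 0.28, 0.11 and 0.73 had a mean of 0.37 ± 0.262 (SD, n = 4).

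The *Tdpoz* genes encode proteins with a TRAF domain and a POZ domain, related to the ubiquitin ligase adaptor SPOP. *Tdpoz3* had control levels of 0.217, 0.291, 0.399 and 0.423 of the array mean and *Kdm6a* RNAi levels of 0.378, 0.379, 0.440 and 0.806. Its mean log2 change, 0.56 ± 0.373 (SD, n = 4), was the largest of the 8 and had changes of 0.82, 0.37, 0.14 and 0.93 behind it. The probe set of *Tdpoz4* or *Tdpoz8* was the exception to the shared direction, with control levels of 0.153, 0.197, 0.269 and 0.174 and *Kdm6a* RNAi levels of 0.171, 0.162, 0.288 and 0.308. Its log2 changes were 0.18, -0.30, 0.10 and 0.82, and the mean of 0.20 ± 0.464 (SD, n = 4) rested on experiment 4, without which it was -0.01.

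The *Usp17l* genes encode deubiquitinating enzymes. *Usp17lc* on its own probe set went from control levels of 0.282, 0.281, 0.304 and 0.438 of the array mean to 0.313, 0.366, 0.397 and 0.586. Its log2 changes of 0.17, 0.37, 0.38 and 0.42 had a mean of 0.34 ± 0.112 (SD, n = 4). The probe set shared with *Usp17la*, *Usp17ld* and *Usp17le* gave 0.56, 0.36, 0.26 and 0.70, with a mean of 0.47 ± 0.198 (SD, n = 4). Both probe sets were higher in all 4 experiments, but the lowest change was in experiment 1 on one and in experiment 3 on the other.

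*Tcstv3* belongs to a small family of 2-cell-stage genes also linked to telomere length. Its control levels were 0.112, 0.142, 0.141 and 0.0835 of the array mean. Its *Kdm6a* RNAi levels were 0.142, 0.169, 0.178 and 0.116. The log2 changes of 0.36, 0.24, 0.33 and 0.47 were the most even of the 8, with a mean of 0.35 ± 0.0949 (SD, n = 4).

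By experiment, the median log2 change over the 8 features was 0.36, 0.32, 0.24 and 0.63 in PGK12.1. The median over all tested features was between 0.00 and 0.03 in the same experiments. Experiment 4, a single RNAi experiment, had the highest median of the members and the smallest decrease in *Kdm6a* among the 4, and experiment 3, the other single RNAi experiment, had the lowest median. Single features did not all follow this order, as the lowest change was in experiment 1 for *Tmem92* and *Usp17lc* and in experiment 2 for *Tdpoz4* or *Tdpoz8*, *Tcstv3* and the *Zscan4* group.

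**Figure D1:**
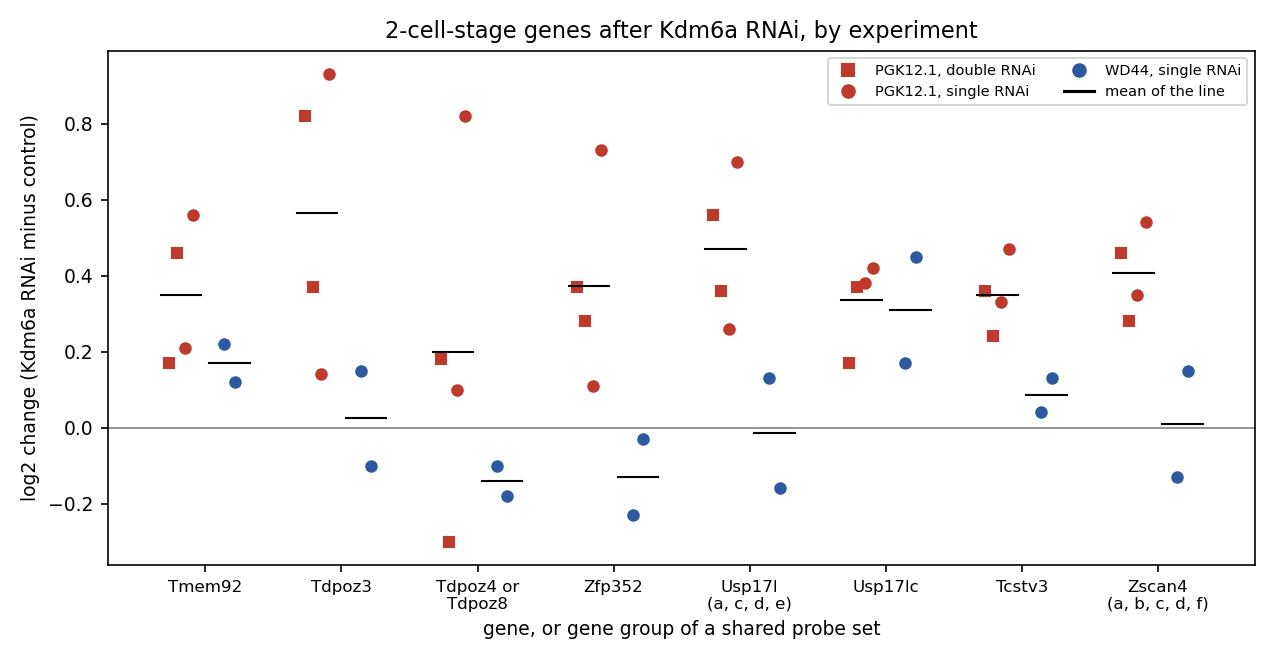
Log2 change within each experiment (*Kdm6a* RNAi array minus its control array) of the 8 features that carry the 2-cell-stage genes, with 1 point for each experiment (4 in PGK12.1, 2 in WD44) and a line at the mean of each cell line. Every PGK12.1 point lies above 0 except that of *Tdpoz4* or *Tdpoz8* at -0.30, while the WD44 points lie between -0.23 and 0.45.

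In WD44, whose values the choice of genes did not use, the same contrast was tested with limma across all features. No member passed at a Benjamini-Hochberg adjusted p of 0.05, and neither did any other of the 15804 features (0.0%). For the 6 features below 0.1 of the array mean in both WD44 controls, the *Usp17lc* probe set included, the values may be mostly background, so the lack of a call says little about the RNA. At an unadjusted p of 0.05, 1 of the 8 members and 2529 features in all (16.0%) passed. The median of the 8 mean log2 changes was 0.018, beside -0.005 for all tested features. Of the 8, 3 were higher in both WD44 experiments, where 31.1% of all tested features were.

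*Usp17lc* was the member at an unadjusted p of 0.05. On its own probe set its level went from 0.0908 to 0.104 of the array mean in WD44 experiment 1 and from 0.0845 to 0.116 in experiment 2. The log2 changes of 0.17 and 0.45 had a mean of 0.31 (95% interval 0.12 to 0.50, limma adjusted p = 0.181). On the probe set it shares with its family the changes were 0.13 and -0.16, with a mean of -0.02 (95% interval -0.25 to 0.22, limma adjusted p = 0.964), so the probe sets differed in direction in experiment 2.

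The *Zscan4* group was at 0.201 and 0.168 of the array mean in the WD44 controls and at 0.186 and 0.188 after *Kdm6a* RNAi. The log2 changes were -0.13 and 0.15, and their mean was 0.01 (95% interval -0.18 to 0.20, limma adjusted p = 0.972). *Tmem92* and *Tcstv3* were higher in both experiments, with log2 changes of 0.22 and 0.12 for *Tmem92* (mean 0.17, 95% interval -0.04 to 0.38, limma adjusted p = 0.412) and of 0.04 and 0.13 for *Tcstv3* (mean 0.08, 95% interval -0.07 to 0.24, limma adjusted p = 0.57). *Zfp352* had log2 changes of -0.23 and -0.03 (mean -0.13, 95% interval -0.40 to 0.14, limma adjusted p = 0.636). *Tdpoz3* had changes of 0.15 and -0.10, and the *Tdpoz4* or *Tdpoz8* probe set had -0.10 and -0.18, with limma adjusted p of 0.963 and 0.764. The upper bounds of the 8 intervals ran from 0.14 to 0.50. For features below 0.1 of the array mean in both WD44 controls, these bounds may not limit the change in RNA. Whether the effect differed between the lines was not tested for these genes, because the PGK12.1 values chose them.

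The control arrays of the lines were then set side by side as a description. Every PGK12.1 control was above both WD44 controls in percentile for all 8 features, as it was for 24.4% of all features on the array. The *Zscan4* group had a median percentile of 98.5 (lowest 96.5, highest 98.8) in the 4 PGK12.1 controls and lay at 36.9 and 42.2 in the WD44 controls, a gap of 59.0 points that 8 of the 20736 features exceeded. *Tmem92* followed, with percentiles of 58.6 to 69.2 for PGK12.1 and of 7.95 and 9.96 in WD44, a gap of 58.6 points that 9 features exceeded. *Tdpoz3* lay at 45.3 to 63.0 against 6.59 and 7.11, a gap of 48.6 points.

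The gaps of the other features were smaller, although none of them overlapped. They were 34.1 points for *Usp17lc*, 31.3 for *Tdpoz4* or *Tdpoz8*, 24.8 for the shared *Usp17l* probe set, 23.8 for *Zfp352* and 20.9 for *Tcstv3*. *Tcstv3* came closest to an overlap, with 16.1 in the PGK12.1 control of experiment 4 and 10.9 in the higher WD44 control. Of all features, 3.22% had a gap of at least 15 points in this direction.

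On the scale of the array mean, the *Zscan4* group averaged 7.14 ± 1.71 (SD, n = 4) in the PGK12.1 controls and 0.185 ± 0.0238 (SD, n = 2) in the WD44 controls, a ratio of 38.7. Against PGK12.1 experiment 4 alone, whose array median was nearest to that of WD44, the ratio was 25.3. The ratios were 12.4 for *Tmem92* and 9.53 for *Tdpoz3*. With experiment 4 alone the ratio was 11.0 for *Tmem92* and larger than over all 4 for *Tdpoz3*. The other 5 features had ratios between 2.57 and 4.73, or between 1.80 and 5.84 with experiment 4 alone. For the 6 features below 0.1 in WD44 the denominator may be mostly background, so these ratios may understate the difference in RNA. *Zfp352* averaged 0.276 ± 0.176 (SD, n = 4) in PGK12.1, where its spread was wide, and 0.0923 ± 0.00606 (SD, n = 2) in WD44. *Tcstv3* with 0.120 ± 0.0277 (SD, n = 4) lay nearest to its WD44 level of 0.0465 ± 0.00214 (SD, n = 2).

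**Figure D2:**
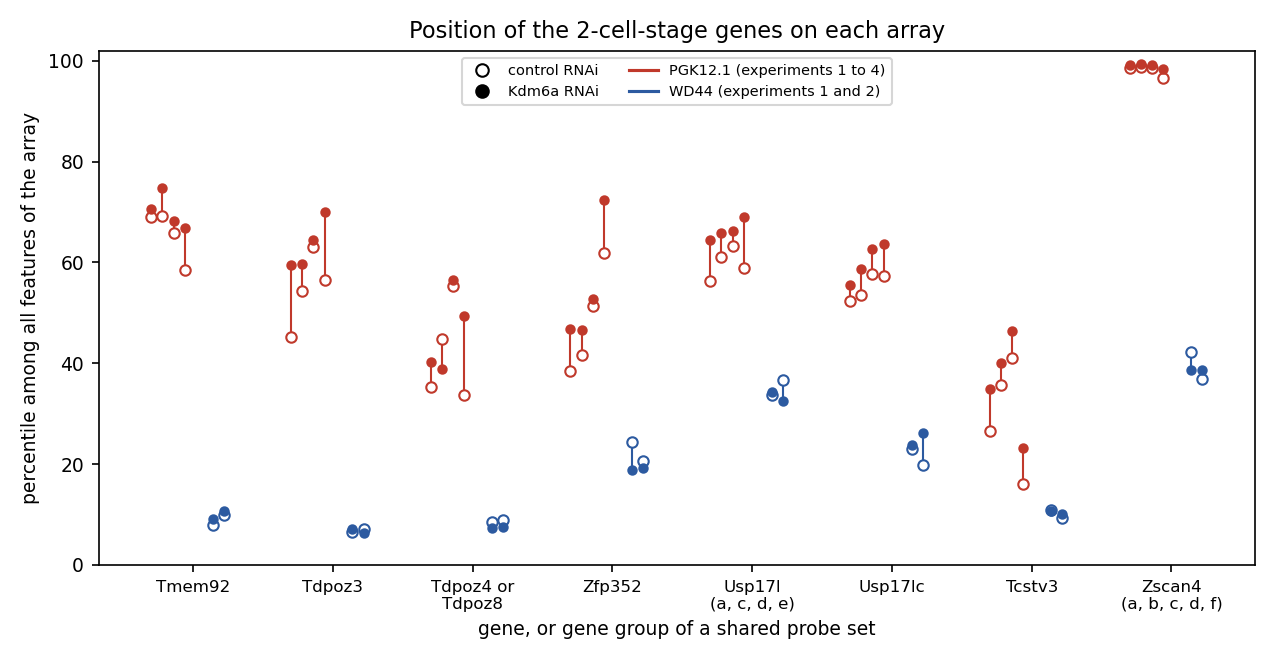
Percentile of each feature among all features of its array, for control arrays (open) and *Kdm6a* RNAi arrays (filled) joined within each experiment, with PGK12.1 experiments 1 to 4 and WD44 experiments 1 and 2 from left to right. All PGK12.1 controls lie above both WD44 controls for each of the 8 features, and the *Zscan4* group lies at 96.5 or above in PGK12.1 and at 42.2 or below in WD44.

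Markers of other cell types also differed between the lines. The summed level of 8 trophoblast markers was 3.21 to 5.47 times the array mean in the PGK12.1 controls and 14.0 to 14.5 in the WD44 controls. The keratin *Krt8* had median percentiles of 73.4 and 98.4 in these controls, and *Krt18* of 61.7 and 95.7. These keratins had the highest mean levels of the list (3.09 and 1.92 times the array mean), so they weigh most in the sum. *Tfap2c* of the same list went the other way, with median percentiles of 82.6 in PGK12.1 and 78.1 in WD44. The summed level of 8 ES cell markers was 59.2 to 88.1 in the PGK12.1 controls, against 45.4 to 47.5 for WD44. Of the 8, 7 lay higher in percentile in every PGK12.1 control than in both WD44 controls, beside 24.4% of all features. *Pou5f1*, *Nanog* and *Sox2* had median percentiles of at least 97.6 in both lines. *Zfp42* had 95.6 in PGK12.1 and 68.3 in WD44, and *Klf4* had 91.5 and 78.3. The sums of PGK12.1 and WD44 controls overlapped for 8 fibroblast markers (1.25 to 1.87 and 1.79 to 1.91), 12 oocyte markers (1.37 to 2.54 and 2.13 to 2.16) and 6 primitive endoderm markers (0.825 to 1.24 and 1.20 to 1.27). The part of these markers, of strain and of the array scale in the levels of the 2-cell-stage genes was not tested.

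Some of these sums also moved with *Kdm6a* RNAi within experiments. The trophoblast sum was lower after RNAi in all 4 PGK12.1 experiments (log2 ratio -0.14 to -0.05) and higher in both WD44 experiments (0.14 to 0.17). In WD44, *Krt8* (0.13 and 0.18) and *Krt18* (0.24 and 0.30) rose, while *Eomes* (-0.24 and -0.19) and *Gata3* (-0.10 and -0.07) fell. The sum thus does not stand for the whole trophoblast list. The fibroblast sum was likewise lower in all 4 PGK12.1 experiments (-0.16 to -0.04) and higher in both WD44 experiments (0.10 to 0.11). *Thy1* of the fibroblast list was lower in both WD44 experiments (-0.22 and -0.16). In PGK12.1, *Col3a1* (-0.24, 0.03, 0.06 and 0.03) and *Prrx1* (0.07, 0.05, -0.03 and 0.10) were mostly higher. In PGK12.1 experiment 4, *Thy1* fell (-0.52) while *Dcn* (0.21) and *Postn* (0.38, below the minimum level) rose. The fibroblast sum does not stand for its whole list either. The primitive endoderm sum was higher in both WD44 experiments (0.07 to 0.15) and in 3 of the 4 in PGK12.1 (-0.05 to 0.07). The ES cell marker sum had ratios of -0.01 to 0.03 over all experiments. The oocyte sum was lower in all 6, with ratios of -0.19 to 0.00, but only 5 of its 12 markers reached the minimum level. *Zp3* had the highest mean level of that list (0.676 of the array mean) and was lower in every experiment (-0.37 to -0.22). In WD44, *Zar1* (0.23 and 0.25) and *Bmp15* (0.27 and 0.54, below the minimum level) were higher. Tested markers numbered 8 for ES cells, 6 for fibroblasts, 5 for oocytes, 7 for trophoblast and 5 for primitive endoderm. In PGK12.1, 1 of these markers passed with limma, the oocyte gene *Zp3*, which fell (log2 change -0.31, limma adjusted p = 0.0057). Of all tested features, 2.11% fell and 3.78% rose, so 1 call is not read as a result about the markers. The part of these shifts in the changes of the 2-cell-stage genes was not tested.

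Double and single RNAi in PGK12.1 were compared next, since the choice of genes used their joint mean and not their difference. No member passed with limma, and neither did any other feature (0.0%). At an unadjusted p of 0.05, 1 of the 8 members and 8.92% of all features passed. That member was the *Tdpoz4* or *Tdpoz8* probe set, with a mean log2 change of -0.06 over the double RNAi and of 0.46 over the single RNAi experiments, a difference of -0.52 ± 0.226 (SE; limma adjusted p = 0.559). The other 7 differences were between -0.13 and 0.06, with limma adjusted p from 0.788 to 0.979. The siRNA dose and the time to harvest changed together and cannot be told apart. Array medians also differed, at 6.15 to 6.21 in the double RNAi experiments. They were 6.47 and 6.48 in single RNAi experiment 3, and 8.20 and 8.21 in single RNAi experiment 4. The part of the array scale in this comparison was not tested.

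Other genes of the same program, which were not among the 10, were examined in PGK12.1 with the same test. A list of 52 other 2-cell-stage genes was carried by 30 features apart from those of the members, of which 18 were tested. In PGK12.1, 11 of the 18 rose and 1 fell, beside 3.78% and 2.11% of all tested features. The median log2 change of the 18 was 0.26, and 0.06 in WD44, where none passed (2 of the 18 at an unadjusted p of 0.05, beside 16.0% of all tested features). This list was drawn up with results of these data known, and several of its members are paralogs of the 10 genes with similar sequence, so their probe sets are uncertain as separate measurements.

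Among these, *Arg2*, the mitochondrial arginase, rose by 0.59 ± 0.056 (log2, SE; limma adjusted p = 0.000939) and had changes of 0.60, 0.63, 0.65 and 0.50. Its changes in WD44 were 0.04 and -0.27. A probe set shared by the *Pramel16*, *Pramel20* and *Pramel31* genes and *Gm* genes of that family, leucine-rich repeat proteins of the PRAME group, rose by 0.59 ± 0.0651 (log2, SE; limma adjusted p = 0.00178). *Pramel19* of the same family rose by 0.45 ± 0.0661 (log2, SE; limma adjusted p = 0.00606). *Usp17lb*, a paralog of *Usp17lc*, rose by 0.43 ± 0.0613 (log2, SE; limma adjusted p = 0.00564), and *Tdpoz2*, a paralog of *Tdpoz3*, by 0.28 ± 0.0493 (log2, SE; limma adjusted p = 0.0122). A probe set of *Gm4340* and its many copies rose by 0.41 ± 0.059 (log2, SE; limma adjusted p = 0.00587), with changes of 0.22 and 0.51 in WD44, where it did not pass (limma adjusted p = 0.166).

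The gene that fell was *Pramel6*, by 0.20 on the log2 scale (limma adjusted p = 0.0451), with changes of -0.17, -0.31, -0.09 and -0.22. *Pramel6* is a gene of the family named above that is known from ground-state ES cells. Its control percentiles had medians of 68.3 in PGK12.1 and 18.8 in WD44, so it shared the difference in level between the lines with the 2-cell-stage genes while its change after *Kdm6a* RNAi had the opposite sign.

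The activators and repressors of the state were mostly without a call. Of 6 activator features tested, 1 rose, beside 3.78% of all tested features, the probe set of *Duxf3* and *Gm9919* (log2 change 0.32 ± 0.0423, SE; limma adjusted p = 0.00438), which reads a copy of the *Dux* double homeobox family. It was higher in all 6 experiments, with changes of 0.29, 0.28, 0.34 and 0.36 in PGK12.1 and 0.28 and 0.18 in WD44, where it did not pass (limma adjusted p = 0.178). None of the 27 repressors of the state that were tested passed with limma in PGK12.1, where 3.78% of all tested features rose and 2.11% fell. The median log2 change of the 27 was -0.01. At an unadjusted p of 0.05, 3 of them passed, beside 22.6% of all tested features. *Lin28a* was lower in all 4 PGK12.1 experiments (-0.32 to -0.09, mean -0.23, limma adjusted p = 0.0517). *Hdac2* was lower (-0.10, limma adjusted p = 0.21) and *Atf7ip* higher (0.13, limma adjusted p = 0.0958). The repressors of highest level, *Trim28*, a corepressor of retroelements, and *Ncl*, nucleolin, had changes of -0.05 and -0.08 (limma adjusted p = 0.549 and 0.414). In the control arrays, 22 of the 30 features of other 2-cell-stage genes and 7 of the 27 repressors lay higher in percentile in every PGK12.1 than in both WD44 arrays, beside 24.4% of all features. The list of other 2-cell-stage genes was drawn up with results of these data known and holds paralogs, so nothing is read from its share. Of its 30 features, 18 reached the minimum level.

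**Figure D3:**
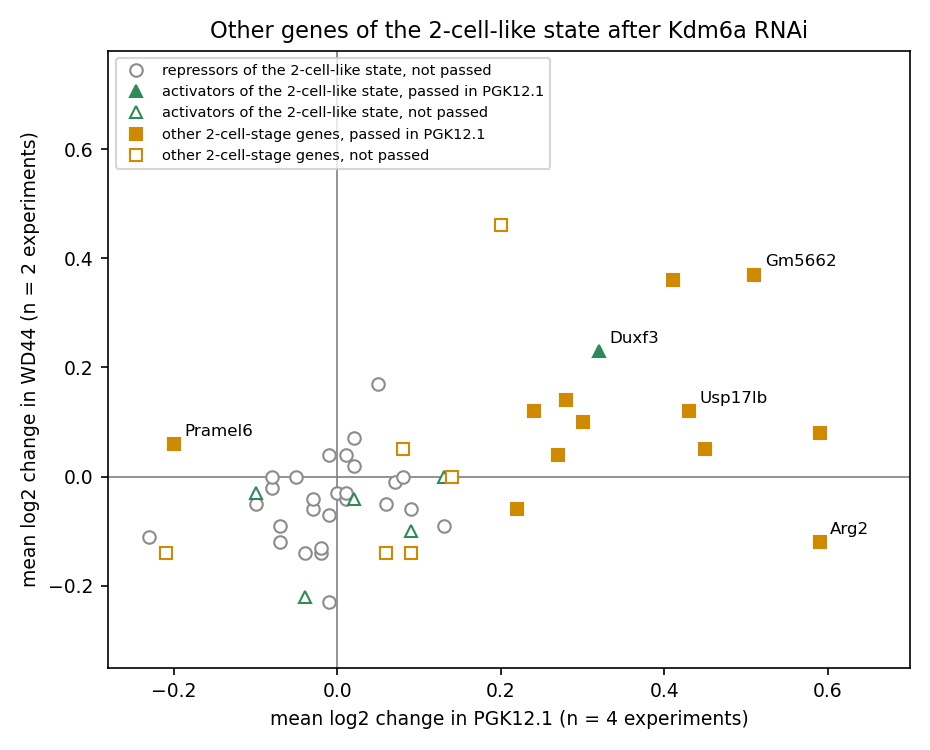
Mean log2 change after *Kdm6a* RNAi in PGK12.1 (horizontal, n = 4 experiments) against that in WD44 (vertical, n = 2 experiments) for other 2-cell-stage genes, activators and repressors, filled where the gene passed limma at an adjusted p of 0.05 in PGK12.1. The 11 other 2-cell-stage features and the *Duxf3* probe set that rose lie to the right and *Pramel6* lies at -0.20, while the 27 repressors, none of which passed, lie between -0.23 and 0.13 in PGK12.1.

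The genes whose changes over the 6 experiments lay nearest to the median change of the 8 members were *Clca3b*, *Eps15*, *Usp17lb*, *Xkrx*, *Syt11* and *Slc36a4*, at Euclidean distances of 0.171 to 0.239 (log2), with Pearson r between 0.865 and 0.962 over the 6 experiments. The members themselves lay at distances of 0.224 (*Tcstv3*) to 0.747 (*Tdpoz4* or *Tdpoz8*). Of these 6 genes, *Usp17lb* alone is in the list of 2-cell-stage genes. *Usp17lb* and *Xkrx* were at a higher percentile in the PGK12.1 than in the WD44 controls (medians of 52.2 and 23.9, and of 40.2 and 18.7), whereas *Eps15* was at 78.9 and 78.6.

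The nearest measured genes on either side of the members on the chromosome were not called where they were tested. Of all tested features, 3.78% rose and 2.11% fell in PGK12.1. At these shares, the lack of a call among so few genes says little. Of 11 such neighbours, 4 were at or above the minimum level, *Gm11545* beside *Tmem92*, *Dmrta1* and *Elavl2* beside *Zfp352*, and *Spopfm2* beside *Tdpoz3* and *Tdpoz4*. Their log2 changes in PGK12.1 were 0.14, 0.12, 0.17 and 0.30, with limma adjusted p of 0.139, 0.382, 0.0682 and 0.116. *Gm11545*, *Dmrta1* and *Elavl2* were higher in all 4 PGK12.1 experiments, as 16.2% of all tested features were. *Spopfm2* had changes of 0.28, -0.01, 0.17 and 0.78. Median control percentiles in PGK12.1 and WD44 were 61.2 and 23.3 for *Spopfm2* and 53.7 and 36.0 for *Gm11545*. They were 25.0 and 44.2 for *Dmrta1* and 55.1 and 65.3 for *Elavl2*. The other 7, among them *Vmn1r71* and *Vmn1r72* on either side of the *Zscan4* cluster, were below the minimum level. These included *Tdpoz1*, which is itself in the list of other 2-cell-stage genes.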

How the data were processed

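The authors deposited log2 values per probe set, which the study's methods and the processing notes of the submitters trace to Affymetrix Expression Console and RMA. Their versions and the sets of arrays that went through RMA jointly are not given in the sources. No further normalization was applied.

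The platform annotation gave 21789 of 35556 probe sets 1 gene symbol, 1621 several and 12146 none. Probe sets with the same symbol or set of symbols were averaged, giving 20736 features, 790 of them with several symbols. Shared probe sets were kept because the *Zscan4* genes lie only on these, and no single gene is named from one. The members and gene lists were chosen with earlier results of these data known.

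Features with a mean of at least 0.1 of the array mean over the 12 arrays (15804) were tested with limma 3.58.1 in R 4.3.3, with the experiment as a block, moderated variances (4 residual degrees of freedom, or 3 for double minus single RNAi, and 5.57 from the prior) and Benjamini-Hochberg adjustment over all tested features at 0.05. All 12 arrays shared 1 estimate of the spread, so the WD44 tests rest mainly on PGK12.1. Arrays were paired by the experiment number in the labels, as the study's paired tests imply. The correlation of paired deviations from group means was 0.831, 0.848, 0.917 and 0.972 for PGK12.1, where array scale contributes, and 0.27 for WD44. The study describes the PGK12.1 arrays as individual RNAi experiments and the arrays as independent ones. Whether the 2 WD44 experiments came from separate cultures is not stated further, and their spread may then be technical. The script was tested on simulated data.

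Named besides the members were, per list, up to 6 called genes with the smallest p or otherwise the 2 of highest level, the 6 genes with the most similar changes, and the chromosomal neighbours. *Pramel6*, *Zp3*, the repressors *Lin28a*, *Hdac2* and *Atf7ip*, and the cell type markers named singly were chosen after their values were seen. Promoters came from RefSeq (GRCm38.p6). Python 3.11.15 and matplotlib 3.10.9 made the figures. Alternatives were other normalizations and minimum levels, each probe set on its own, limma with trend and robust moderation, no block, subsets of experiments, each experiment left out, and the methods' paired test.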

Additional observations from a re-analysis of the deposited data

Results flagged for a closer look

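In the PGK12.1 controls, *Zfp352* lay at 0.539 of the array mean in experiment 4, far above the 0.171, 0.175 and 0.220 of experiments 1 to 3, and *Usp17lc* lay at 0.438 in experiment 4, far above 0.282, 0.281 and 0.304. In both cases the gap to the nearest control exceeded Dixon's 95% critical share of the range of the 4 controls. Chance alone singles out about 1 in 20 such groups, and the 8 features and *Kdm6a*, 9 in all, were examined for their control levels and their log2 changes. Experiment 4 also had the highest array medians of the PGK12.1 arrays (8.20 and 8.21, log2), and the part of the array scale in these levels was not tested.

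*Zfp352* was higher after *Kdm6a* RNAi in every PGK12.1 experiment and lower in both WD44 experiments, where its mean log2 change was -0.13. The difference between the lines was not tested, because the PGK12.1 values chose the gene.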

How the results depend on the processing

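The median log2 change of the 8 features in PGK12.1, averaged over the 4 experiments, was 0.387 and stayed between 0.307 and 0.438 under the alternatives run. The *Tdpoz4* or *Tdpoz8* probe set turned in direction with the double RNAi experiments only (-0.06) and without experiment 4 (-0.01), and leaving out each PGK12.1 experiment in turn gave -0.01 to 0.37. The count of members that passed in WD44 or in double minus single RNAi was 0 under every alternative run. For *Usp17lc* in WD44 the limma adjusted p ran from 0.129 to 1.

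Of the genes of the other 2-cell-stage, activator and repressor lists, 13 passed in PGK12.1, where 930 of all features passed. The count was 8 with no minimum level, where 465 of all features passed. It was 3 with the single RNAi experiments only (101 of all features) and 2 with the double only (187 of all features). With 1 experiment left out it was 8 without experiment 2, 3 or 4 (361, 551 and 631 of all features) and 11 without experiment 1 (506 of all features). All but the first of these settings had fewer arrays, and the calls over all features fell as well. The count of listed genes was 0 with the methods' paired test after adjustment, where 0 of all features passed. Unadjusted, 17 of the listed genes and 2515 of all features passed that test. Without the replicate block it was 0, and 0 of all features passed, even unadjusted, since the array scales of the experiments then enter the spread. The *Zp3* call was therefore lost as well, while the counts of members in WD44 and in double minus single RNAi stayed at 0. The number of arrays limits the precision, and levels near the low end of the array in WD44 limit what a change there can show.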
